A study of Mus musculus with 12 samples.

Results

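Klhl7, Mid1, Fhl1, Snx16, Ephx3, Syt14 and Ccng2 are 7 of the 12980 genes measured in erythroid precursors of mouse spleen, grouped because their signal in the double knockout was not the sum of what the single knockouts showed. They were picked on that interaction in these same arrays, so their levels and differences are given as a description and only comparisons that the choice did not use are tested. Each is read by 1 probe set that carries its symbol alone, out of 35557 probe sets. The arrays measured RNA of spleen cells that had been sorted for the erythroid surface protein Ter119 and for a high level of CD71, the transferrin receptor, from mice aged 3 months. There were 4 genotype labels with 3 arrays each, called biological replicates: DKO (knockout of both E2f8 and Rb), E2f8 KO, Rb KO and WT. The sources used here name neither strain, allele nor driver of a conditional deletion, and give no number of mice per array, so p-values measure the spread between these arrays.

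Rb, the retinoblastoma protein encoded by Rb1, binds E2F transcription factors and holds back the genes of cell cycle entry. E2f8 encodes an atypical E2F that binds DNA without a DP partner and represses E2F target genes late in S phase. In the spleen, late erythroblasts leave the cell cycle, condense their nucleus and expel it, a course in which Rb is known to be needed. The 7 genes belong to no single pathway. Klhl7 encodes a kelch-BTB adaptor of the Cul3 ubiquitin ligase, and Mid1 a RING-type ubiquitin ligase of the TRIM family that sits on microtubules. Fhl1 encodes a scaffold made of LIM domains, Snx16 a sorting nexin of endosomes and Syt14 a synaptotagmin. Ephx3 encodes an epoxide hydrolase that acts on epoxides of fatty acids, and Ccng2 cyclin G2, an unconventional cyclin that is found at a high level in cells leaving the cycle.

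Promoter sequence from RefSeq (GRCm38.p6) was at hand for 6 of the 7 genes as 9 windows of 250 bases before an annotated start, with 3 windows for Mid1 and 2 for Fhl1. The last 150 bases before the start are printed for 2 genes that were highest in the arrays labelled DKO and 2 that were lowest there, 5′ to 3′ on the gene's strand, with capitals on every match to a searched motif on either strand. The windows are chr5:24100440-24100589 on the plus strand for Klhl7, chrX:169685049-169685198 on the plus strand for the first start of Mid1, chr1:193035776-193035925 on the minus strand for Syt14 and chr5:93267423-93267572 on the plus strand for Ccng2.
Klhl7: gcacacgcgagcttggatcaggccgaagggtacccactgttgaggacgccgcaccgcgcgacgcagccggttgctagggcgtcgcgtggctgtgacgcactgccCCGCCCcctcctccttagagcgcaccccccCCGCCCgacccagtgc
Mid1: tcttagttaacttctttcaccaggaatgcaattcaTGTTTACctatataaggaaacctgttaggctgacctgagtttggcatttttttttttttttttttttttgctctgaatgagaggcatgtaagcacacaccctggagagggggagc
Syt14: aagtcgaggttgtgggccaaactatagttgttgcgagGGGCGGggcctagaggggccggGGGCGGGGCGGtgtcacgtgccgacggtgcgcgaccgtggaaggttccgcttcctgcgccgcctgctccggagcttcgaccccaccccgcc
Ccng2: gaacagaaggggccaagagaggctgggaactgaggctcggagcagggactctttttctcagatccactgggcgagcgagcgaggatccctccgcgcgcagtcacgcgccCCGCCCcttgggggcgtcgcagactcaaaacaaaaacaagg
In Klhl7, Syt14 and Ccng2 the capitals are GC boxes (GGGCGG or its reverse complement), 2 of which overlap in Syt14, and in Mid1 they are a forkhead (FOXO) match, TGTTTAC. Such boxes lay in 4 of the 9 windows (44.4%), against 32.7% of all 32851 windows. The FOXO letters lay in 1 of the 9 windows and in 3.17% of all windows. An E2F motif in any of the spellings TTTCCCGC or TTTCGCGC or TTTGCCGC or TTTGGCGC lay in 0 of the 9 windows and in 1.86% of all windows. The GATA factor letters AGATAA lay in 0 of the 9 and in 9.99% of all, the CHR letters TTTGAA in 1 of the 9 (the third start of Mid1) and in 16% of all, and CCAAT in 2 of the 9 and in 33.8% of all. GC content ran between 40.8% in the first Mid1 window and 69.2% in the Syt14 window, around a median of 52.4% over all windows. A match says only that these letters stand in the window.

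The names of the genotypes are those of the array labels throughout, since Rb1 and E2f8 themselves did not go with them. Rb1 was lowest in the arrays labelled E2f8 KO (11.68 to 11.74), next in those labelled DKO (11.98 to 12.23), then in those labelled Rb KO (12.33 to 12.53), and was highest in WT (12.71 to 13.02, log2 signal). E2f8 lay between 13.09 and 13.17 in the arrays labelled DKO, 12.74 and 12.89 in those labelled E2f8 KO, 11.68 and 12.52 in those labelled Rb KO, and 11.70 and 12.28 in WT. Where these probe sets lie relative to the deleted parts was not found in the labels, so they do not settle the matter. The interaction and the difference between DKO and WT keep their value if the 2 single-knockout labels are exchanged, whereas every difference that names E2f8 KO or Rb KO rests on those labels. Array medians lay between 6.22 and 6.35. Xist was at 5.22 in replicate 3 labelled E2f8 KO and 3.99 in replicate 3 labelled DKO, and at 11.30 or more in each of the other 10 arrays. Signal of Eif2s3y, a gene of the Y chromosome, ran the other way. It reached 8.17 in replicate 3 labelled E2f8 KO and 7.82 in replicate 3 labelled DKO, and stayed between 2.79 and 3.32 elsewhere. By these 2 genes, replicate 3 of E2f8 KO and of DKO looked male and the other 10 arrays female. Sex was thus mixed only within the groups labelled E2f8 KO and DKO.

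Of the ubiquitin ligase genes, Klhl7 (chr5:24100565-24163369, GRCm38.p6) showed the largest interaction of the 12980 genes. Its log2 signal was 9.93, 9.04 and 8.99 in the arrays labelled DKO, 5.73, 5.48 and 5.52 in those labelled E2f8 KO, 5.98, 6.29 and 6.24 in those labelled Rb KO, and 6.25, 6.50 and 5.88 in WT. The DKO arrays stood far above the other 9, and replicate 1 stood above the other 2 DKO arrays. Rb KO and WT overlapped, and the E2f8 KO arrays lay just below both, under the level of 5.84 that marks the lowest 40% of probe sets. The mean in DKO exceeded that in E2f8 KO by 3.74 ± 0.24 (SE, n = 3 per group), that in Rb KO by 3.15 ± 0.24 and that in WT by 3.11 ± 0.24, the last an 8.64-fold higher signal. The interaction, DKO minus E2f8 KO minus Rb KO plus WT, was 3.78 ± 0.33. In people, variants of KLHL7 are known from inherited retinal degeneration.

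Mid1 (chrX:169685199-169990798) followed with the second largest interaction. It had a log2 signal of 10.19, 9.28 and 9.50 in the arrays labelled DKO, 6.75, 6.96 and 6.60 in those labelled E2f8 KO, 6.56, 7.57 and 7.24 in those labelled Rb KO, and 7.53, 7.78 and 7.18 in WT. Again the DKO arrays lay above all others, with replicate 1 the highest. The E2f8 KO arrays lay below WT without overlap, while Rb KO overlapped with both. DKO exceeded E2f8 KO by 2.89 ± 0.28, Rb KO by 2.53 ± 0.28 and WT by 2.16 ± 0.28 (SE, n = 3 per group), a 4.47-fold higher signal against WT, and the interaction was 3.26 ± 0.40. Mid1 is known to send the catalytic subunit of the phosphatase PP2A to degradation and is mutated in X-linked Opitz syndrome of people. The end of the mouse gene reaches into the pseudoautosomal region of the X chromosome. Without the 2 arrays of low Xist signal the interaction was 3.26 and the difference of DKO from WT 2.24.

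Fhl1 (chrX:56731209-56793346) differed from this pair in that the arrays labelled E2f8 KO were also high. The log2 signal was 9.57, 9.95 and 10.25 in the arrays labelled DKO, 7.32, 7.56 and 7.96 in those labelled E2f8 KO, 6.69, 6.54 and 6.76 in those labelled Rb KO, and 6.36, 6.41 and 6.48 in WT. No 2 of the 4 groups overlapped, although Rb KO and WT were separated by only 0.06. DKO exceeded E2f8 KO by 2.31 ± 0.20, Rb KO by 3.26 ± 0.20 and WT by 3.51 ± 0.20 (SE, n = 3 per group), the last an 11.4-fold higher signal, and the interaction was 2.06 ± 0.28. Replicate 3 was the highest array in both DKO and E2f8 KO, and these are the 2 arrays of low Xist signal. Without them the interaction of this X-linked gene was 2.07 and the difference of DKO from WT 3.34. Fhl1 is best known from skeletal muscle, where variants of the human gene cause myopathy, and 1 of its splice forms binds Rbpj, the DNA-binding factor of Notch signalling.

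Among the genes of membrane traffic, Snx16 (chr3:10417817-10440131) came closest to a change in the double knockout alone. It had a log2 signal of 8.08, 8.19 and 8.41 in the arrays labelled DKO, 6.44, 6.65 and 6.48 in those labelled E2f8 KO, 6.68, 6.51 and 6.45 in those labelled Rb KO, and 6.45, 6.55 and 6.19 in WT. The 3 groups other than DKO all overlapped with one another. DKO exceeded E2f8 KO by 1.70 ± 0.15, Rb KO by 1.68 ± 0.15 and WT by 1.83 ± 0.15 (SE, n = 3 per group), a 3.56-fold higher signal against WT, and the interaction was 1.55 ± 0.21. Snx16 binds the phosphoinositide of endosomes through its PX domain and is known to act in traffic between early and late endosomes.

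Syt14 (chr1:192882653-193035871) took the opposite direction. Its log2 signal was 6.72, 6.54 and 6.74 in the arrays labelled DKO, 8.86, 8.46 and 8.74 in those labelled E2f8 KO, 7.82, 7.46 and 7.44 in those labelled Rb KO, and 8.06, 8.03 and 8.02 in WT. No 2 groups overlapped, with the order E2f8 KO, WT, Rb KO and DKO going down. The arrays labelled E2f8 KO thus lay above WT (as in 22.3% of all genes) and those labelled Rb KO below it (4.03%), whereas those labelled DKO lay below Rb KO. The difference of DKO was -2.02 ± 0.16 from E2f8 KO, -0.91 ± 0.16 from Rb KO and -1.37 ± 0.16 from WT (SE, n = 3 per group), and the interaction was -1.56 ± 0.23. Syt14 is known to lack calcium binding.

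Ccng2 (chr5:93267573-93276231) differed in DKO as Snx16 did, in the other direction. It had a log2 signal of 5.76, 5.96 and 5.84 in the arrays labelled DKO, 7.82, 7.92 and 7.32 in those labelled E2f8 KO, 7.30, 7.46 and 7.60 in those labelled Rb KO, and 7.45, 7.80 and 7.60 in WT. The DKO arrays lay close to the level of 5.84 under which probe sets were filtered, and the 3 other groups overlapped with one another. DKO differed by -1.83 ± 0.17 from E2f8 KO, by -1.60 ± 0.17 from Rb KO and by -1.77 ± 0.17 from WT (SE, n = 3 per group), a 3.40-fold lower signal than in WT, and the interaction was -1.67 ± 0.25. Cyclin G2 is known to slow the cycle when forced into cells, to bind PP2A and to be a target gene of FoxO factors.

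Ephx3 (chr17:32183770-32189470) did not show a change mainly in the double knockout. Its log2 signal was 6.03, 5.89 and 6.17 in the arrays labelled DKO, 7.50, 7.75 and 7.32 in those labelled E2f8 KO, 5.44, 5.21 and 4.99 in those labelled Rb KO, and 5.12, 5.40 and 5.29 in WT. The arrays labelled E2f8 KO were the highest, DKO lay between them and the rest, and Rb KO and WT overlapped. The gene passed the filter through the E2f8 KO and DKO arrays, as all 6 arrays of Rb KO and WT lay under 5.84. DKO differed by -1.49 ± 0.15 from E2f8 KO, by 0.82 ± 0.15 from Rb KO and by 0.76 ± 0.15 from WT (SE, n = 3 per group). The negative interaction of -1.44 ± 0.21 therefore came with a DKO signal above WT. Ephx3 is known chiefly from the epidermis, where it turns epoxides of linoleate into diols.

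**Figure D1:**
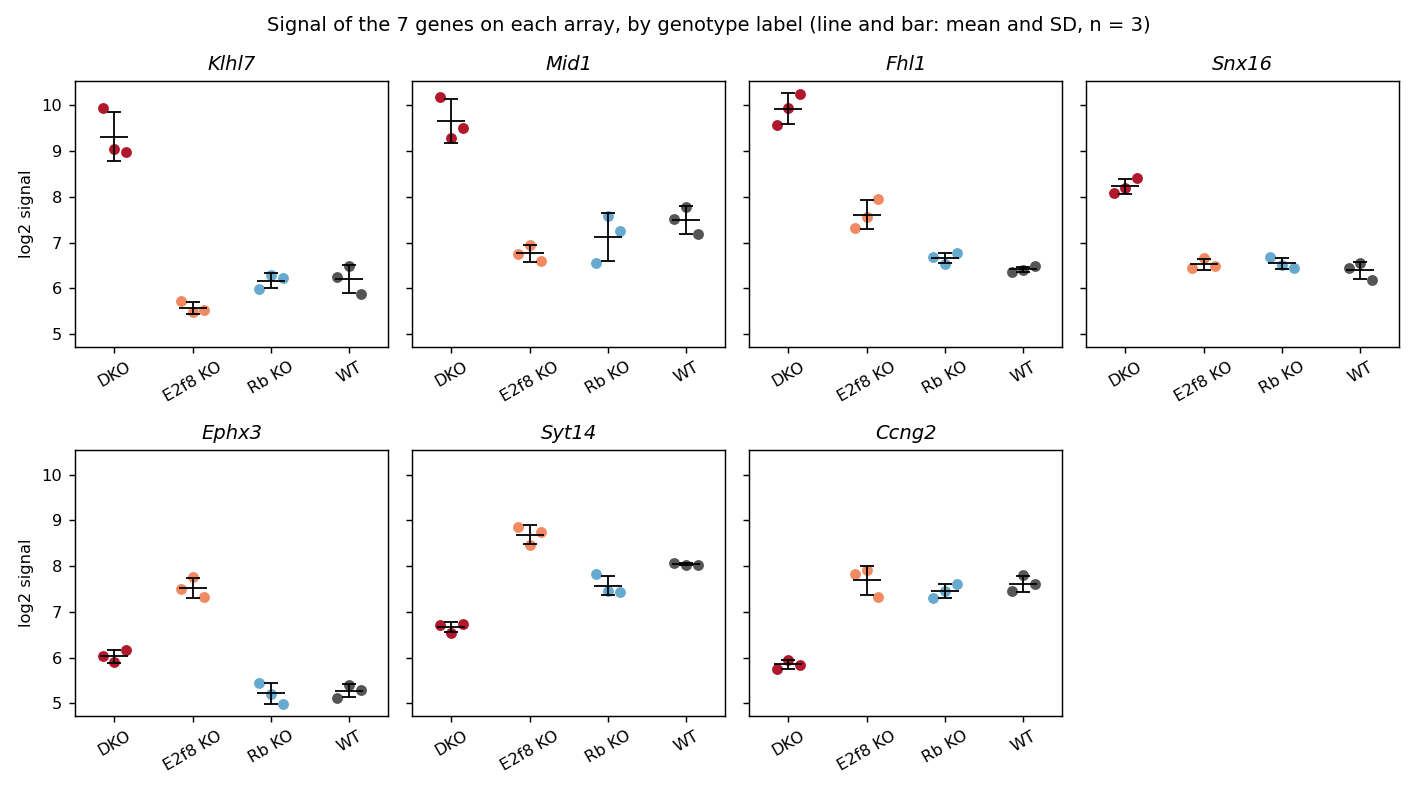
Log2 signal (y axis) of each of the 7 genes on every array, by genotype label, with the mean and SD of 3 arrays. The arrays labelled DKO lie above the 9 others in Klhl7, Mid1, Fhl1 and Snx16 and below them in Syt14 and Ccng2, while in Ephx3 the arrays labelled E2f8 KO are the highest.

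In all, the 3 DKO arrays lay above the 9 others in 4 of the 7 genes and below them in 2. Over all genes tested the share was 11.2% above and 6.22% below. Against Rb KO alone, 23.2% of all genes had every DKO array higher and 20.4% every DKO array lower, and since the genes were picked for this pattern nothing is read from the difference. The interaction passed an adjusted p of 0.05 (limma, Benjamini-Hochberg) in 10 genes, or 0.077% of those tested, 7 of them higher (0.0539%) and 3 lower (0.0231%). These 10 hold the 7 genes, as the choice had fixed, together with Tnfrsf10b at 2.53 ± 0.23, Eda2r at 2.25 ± 0.28 and Podxl at 1.82 ± 0.26, which were named after their values were seen. The set holds several patterns: Snx16 and Ccng2 stood apart in DKO from 3 overlapping groups, Klhl7 and Mid1 were in addition lower in E2f8 KO than in WT, Fhl1 was higher in E2f8 KO too, and Syt14 and Ephx3 were highest in E2f8 KO. Klhl7, Mid1 and Syt14 had DKO and Rb KO apart in the opposite direction to E2f8 KO and WT, as 0.193% of all genes did. With the single-knockout labels exchanged none of the 7 had this pattern, against 0.308% of all genes.

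**Figure D2:**
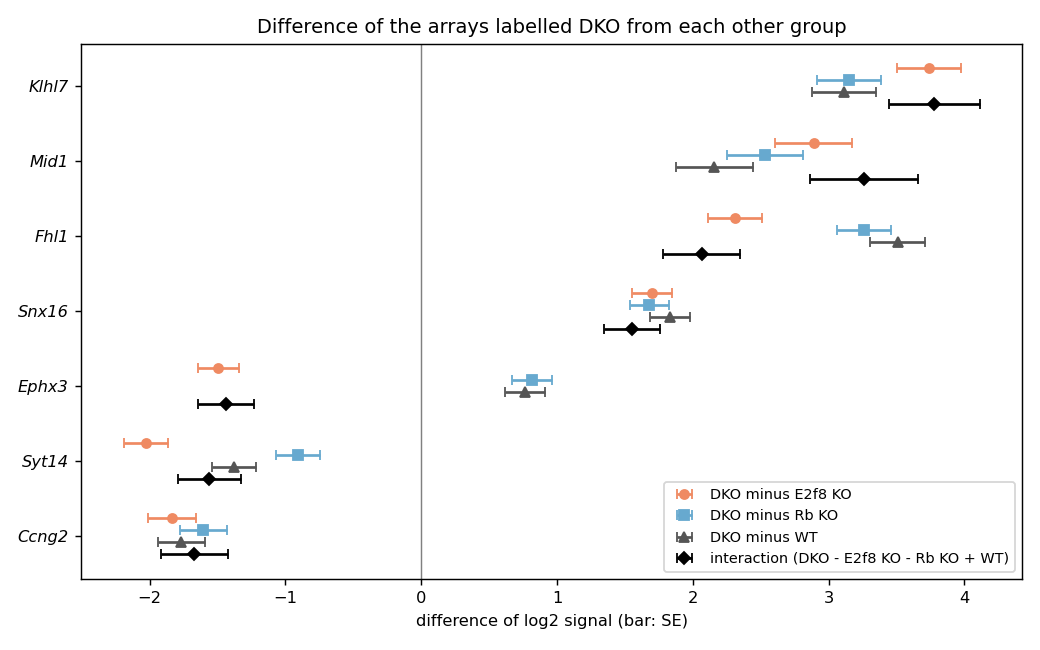
Difference of log2 signal (x axis, with SE) of the arrays labelled DKO from each of the 3 other groups, and the interaction, for the 7 genes (y axis). For Snx16 (1.68 to 1.83) the 3 differences lie close together, for Fhl1 (2.31 to 3.51) they are spread out, and for Ephx3 they differ in sign.

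The difference between the arrays labelled E2f8 KO and Rb KO does not enter the interaction in this balanced design and holds no DKO array, so it was tested. Over all genes, 27.7% were called in either direction and 12.2% higher. Syt14 was higher in E2f8 KO than in Rb KO by 1.12 ± 0.16 (SE, n = 3 per group, limma adjusted p = 0.00109) and Fhl1 by 0.95 ± 0.20 (adjusted p = 0.00536). From WT, Syt14 differed by 0.65 in E2f8 KO and by -0.47 in Rb KO. Ephx3 differed by 2.31 ± 0.15, but it had passed the filter on low values only through the arrays in which it is high, so it is left out of any count. With no filter, over 19938 genes, its adjusted p was 9.23e-06, against an Rb KO signal that is near the bottom of the range. In Syt14 and Fhl1 every E2f8 KO array lay above every Rb KO array, as in 24.7% of all genes. In Klhl7 every E2f8 KO array lay below every Rb KO array, as in 22.8%. No overlap in either direction was found in 47.5% of all genes. Klhl7 had a difference of -0.59 ± 0.24 (adjusted p = 0.0798), which passed in 4 of 21 alternatives. Mid1 had -0.36 ± 0.28 (adjusted p = 0.377), Ccng2 0.23 ± 0.17 (adjusted p = 0.353) and Snx16 -0.02 ± 0.15 (adjusted p = 0.927), which does not show that the labels act alike on them. The genes were picked for a clear interaction, which favours genes with little spread between replicates, and that spread also enters these p-values.

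**Figure D3:**
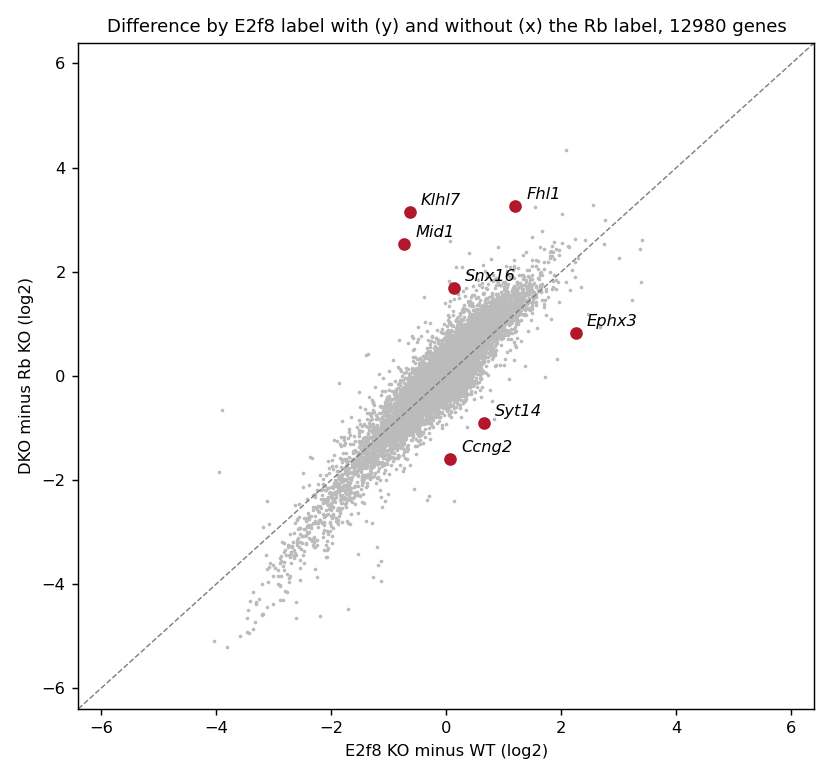
Difference of log2 signal between E2f8 KO and WT (x axis) and between DKO and Rb KO (y axis) for 12980 genes, with the 7 genes in red and a dashed line of equal differences. Klhl7 and Mid1 lie left of 0 and high on the y axis, Syt14 lies right of 0 and low, and Snx16 and Ccng2 lie near 0 on the x axis.

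Some of the 7 genes also varied together between replicates. Across the 12 arrays Klhl7 and Mid1 had a Pearson's r of 0.98, and after removal of the group means, 0.81. Klhl7 and Fhl1 had 0.84 across arrays and -0.68 within groups, as replicate 1 of DKO was the highest DKO array for the first gene and the lowest for the second. These values share the same 12 arrays and are a description. By the same measure, the genes closest to Klhl7 after Mid1 were Snx16 (0.94) and Ubxn8 (0.93), and those closest to Mid1 after Klhl7 were Tnfrsf10b (0.91) and Snx16 (0.90). Ubxn8 was also first for Snx16 (0.98), before Xpot and Car13, at 11.00 in DKO, 9.10 in E2f8 KO, 9.31 in Rb KO and 8.93 in WT (mean log2 signal). Closest to Fhl1 were Mapk7 (0.98), Eda2r (0.98) and Jpt2 (0.98), with 303 genes above 0.9, so that its profile was a common one. By contrast, 4 genes were that close to Mid1 and 2 to Syt14. The genes nearest to Syt14 were Dhrs7c (0.94), Ccl20 (0.92) and Mfhas1 (0.90), to Ephx3 Bbs10 (0.95), Zc3h14 (0.95) and Shb (0.94), and to Ccng2 Polr3b (0.95), Use1 (0.93) and Jchain (0.93).

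Other blood cells differed between the sorted samples, and fewer cells of a type cannot be told apart from less RNA per cell. The 17 measured of 18 B cell markers averaged 6.85 ± 0.51 on the log2 scale (SD, n = 3) in DKO, 8.04 ± 0.17 for E2f8 KO, 11.05 ± 1.20 for Rb KO and 10.88 ± 0.74 for WT. The plasma cell list (8 of 8), which holds Jchain, stood at 6.69 ± 0.16, 7.33 ± 0.07, 8.03 ± 0.61 and 8.05 ± 0.19 in that order of groups. Jchain itself was low in DKO only, at 6.59, 9.83, 9.01 and 9.70 in the same order. Macrophage markers (18 of 20) stood at 7.45 ± 0.19 in DKO, 8.36 ± 0.05 in E2f8 KO, 8.69 ± 0.13 in Rb KO and 9.58 ± 0.35 in WT. Granulocyte markers (16 of 18) stood at 6.78, 7.93 and 10.23 in the 3 DKO arrays, 8.05 to 8.51 across E2f8 KO, 6.71 to 6.80 across Rb KO and 6.20 to 6.36 across WT. T cell markers (9 of 13) stood at 5.99 ± 0.07 in DKO, 6.36 ± 0.05 in E2f8 KO, 7.88 ± 0.63 in Rb KO and 8.01 ± 0.18 in WT. Erythroblast markers (14 of 18) were high in all groups, at 12.85 ± 0.01 in DKO, 12.87 ± 0.08 in E2f8 KO, 12.35 ± 0.36 in Rb KO and 12.54 ± 0.14 in WT. Markers of megakaryocytes (7 of 12) lay between 7.13 and 7.40 on all 12 arrays. The stem and progenitor list (6 of 10) lay between 6.66 and 7.73, the stroma and endothelium list (6 of 12) between 6.26 and 7.18 and the NK cell list (3 of 9) between 5.97 and 7.50, the rest of these last 3 lists being on the array below the filter level.

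Across the 12 arrays, which share their genotype labels with the lists, Ccng2 had a Pearson's r of 0.66 with the B cell list, 0.75 with the plasma cell list and 0.77 with the macrophage list. Fhl1 had -0.85 with the B cell list, -0.86 with the plasma cell list and -0.89 with the macrophage list. After removal of the group means the macrophage list had 0.18 with Fhl1 and 0.0005 with Ccng2. Other pairs lay further from 0, between -0.715 for the plasma cell list with Syt14 and 0.74 for the macrophage list with Snx16. The granulocyte list had -0.62 with Klhl7 and 0.61 with Fhl1. By group, Ccng2 averaged 7.68 in E2f8 KO and 7.62 in WT, while the B cell list stood at 8.04 in E2f8 KO and 10.88 in WT. Klhl7 and Mid1 were highest in replicate 1 of DKO, which had the lowest granulocyte mean of the DKO arrays (6.78), and Fhl1 and Snx16 were highest in replicate 3, which had the highest (10.23). Replicate 1 labelled Rb KO had a B cell mean of 9.67 against 11.75 and 11.74 in the others of its group, and it had the lowest Mid1 and the highest Syt14 signal of that group. Leaving out any 1 array kept the interaction between 3.47 and 3.94 for Klhl7, 2.98 and 3.49 for Mid1, 1.90 and 2.24 for Fhl1, and 1.46 and 1.65 for Snx16. For the other 3 it ran between -1.55 and -1.32 for Ephx3, -1.67 and -1.44 for Syt14 and -1.85 and -1.56 for Ccng2. The part of the other cell types in these values was not tested.

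**Figure D4:**
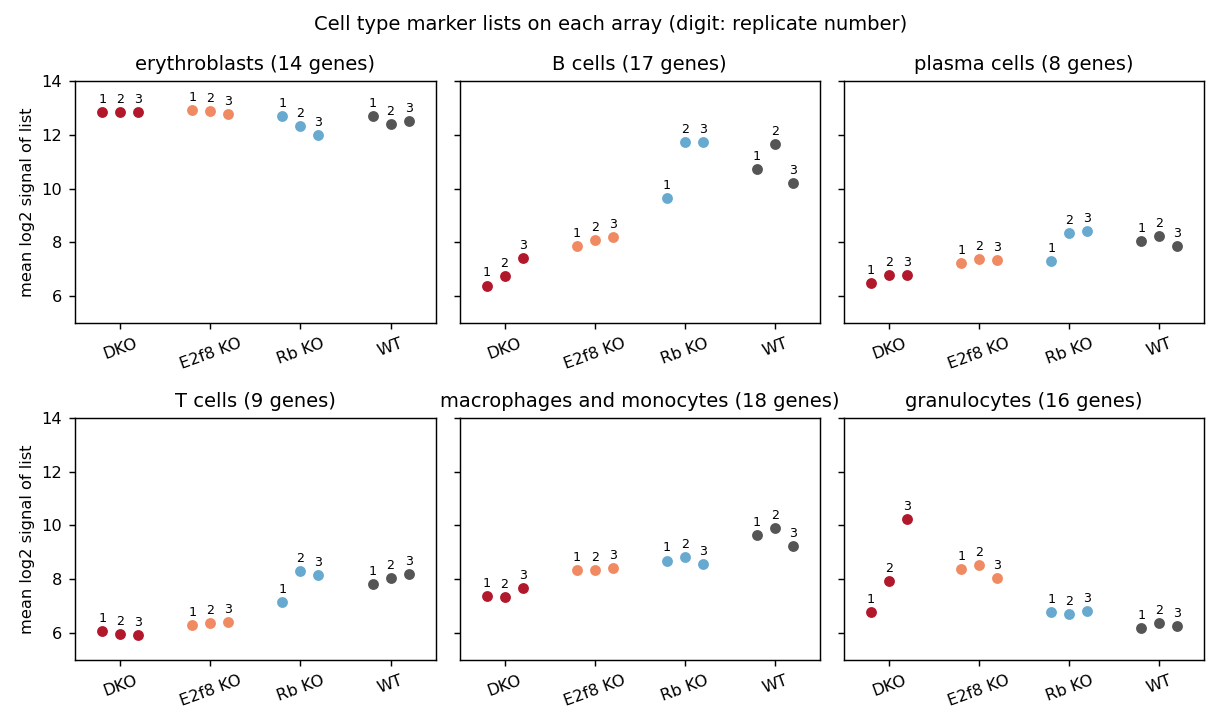
Mean log2 signal (y axis) of 6 lists of cell type markers on every array, by genotype label, with the replicate number above each point. The granulocyte list spreads between 6.78 and 10.23 over the DKO arrays, and the B cell list is lower in DKO and E2f8 KO than in Rb KO and WT.

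The relatives and partners of the 7 genes were examined in 8 lists with 167 measured genes, the 7 left out. For the interaction, limma called 0 of the 167 (9 had an unadjusted p under 0.05, or 5.39%, near the 5.7% of all genes), and a miss at this number of arrays does not show that they lack the pattern. In the cyclin G and FoxO list 1 gene was called with quantile normalization, with array weights, without replicate 1 of DKO or without replicate 1 of Rb KO. Between DKO and WT, where 38.2% of all genes were called, 20.6% higher and 17.6% lower, the lists went different ways. These are the same DKO and WT arrays as in the differences of the 7 genes. A difference of DKO from WT does not by itself set DKO apart from E2f8 KO.

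Klhl7 works with Cul3, which was at 10.58, 10.84 and 11.01 in DKO, against 10.55, 10.38 and 10.25 in WT, and rose by 0.42 ± 0.15 (SE, adjusted p = 0.0483). Among Cul3, Rbx1 and the kelch-BTB adaptors, 11 of 30 rose and 4 fell, with a median difference of 0.16, against 0.00 over all genes. Ivns1abp, a kelch protein of actin and of splicing bodies, rose by 1.79 ± 0.19 and Klhl15 by 1.67 ± 0.16, and Kbtbd8, another kelch-BTB protein, by 1.23 ± 0.24. Ivns1abp was also high in E2f8 KO, at 10.62, 10.58 and 10.69, against 9.61, 9.33 and 9.23 in WT. So was Klhl15, at 8.66, 8.50 and 8.31 in E2f8 KO, against 7.46, 7.22 and 7.32 in WT. Klhl42 fell to 6.72 in DKO, against 8.71 in WT (adjusted p = 0.00274). It was as low in E2f8 KO, at 6.52, 6.91 and 6.98, and stood at 7.60, 9.45 and 9.71 in Rb KO. The B cell list was also lower in DKO and E2f8 KO, and its part in the Klhl42 values was not tested. The count of risers was 4 with a 2-fold minimum or with Benjamini-Yekutieli adjustment, 5 at an adjusted p under 0.01, 6 without replicate 2 of DKO or replicate 2 of WT, 7 without replicate 3 of WT and 7 without both arrays of low Xist signal, and fallers numbered 7 without replicate 1 of Rb KO. Of the paralogs and PP2A partners of Mid1, 3 of 11 rose and 0 fell. Fsd1l, a relative with a similar domain order, was at 8.76 in DKO, 7.77 in E2f8 KO, 5.66 in Rb KO and 5.76 in WT. Its Rb KO and WT means lie under the filter level of 5.84, so it passed the filter through the other arrays. As Fsd1l is among the 3 risers, nothing is read from that count. Mid1ip1, a protein that binds Mid1, rose by 2.07 ± 0.28 and Ppp2cb, a catalytic subunit of PP2A, by 0.74 ± 0.16 (adjusted p = 0.00338). Mid1ip1 was also high in E2f8 KO, at 10.66, 10.61 and 10.09, against 9.30, 8.44 and 8.50 in WT. 1 gene of this list fell without replicate 2 of DKO, without replicate 1 of Rb KO or without replicate 3 of WT. Mid2, the closest paralog, was below the filter level.

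The LIM-only paralogs of Fhl1 did not pass. Fhl2 was at 6.25 in DKO and 6.30 in WT, a difference of -0.05 ± 0.13 (adjusted p = 0.787), and Fhl3 at 6.49 and 6.90 (-0.41 ± 0.21, adjusted p = 0.158). In the list of FHL and Rbpj/Notch genes, 1 of 16 rose and 5 fell. Dtx1 fell by 2.27 ± 0.46, Hes1 by 1.59 ± 0.36 and Notch2 by 1.58 ± 0.40, and Notch2 and Dtx1 are known to be expressed in B cells. The B cell list was lower too (6.85 in DKO and 10.88 in WT), and its part in these values was not tested. Of the sorting nexins and the retromer, 7 of 31 rose and 12 fell. Snx15 fell by 1.54 ± 0.14 (adjusted p = 1.02e-05), while the retromer genes Vps26b and Vps35 rose by 1.36 ± 0.28 and 1.03 ± 0.22. The risers numbered 4 without replicate 1 of DKO, and 3 without replicate 2 of DKO, without replicate 2 of WT or without both arrays of low Xist signal, and the fallers 7 without replicate 2 of WT. Of the synaptotagmins and their relatives, 1 of 16 rose (Esyt2 by 0.81 ± 0.20) and 0 fell.

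Ephx1, the microsomal epoxide hydrolase, went against Ephx3. It was at 5.90, 5.93 and 6.13 in DKO, 6.89, 6.64 and 6.60 for E2f8 KO, 7.93, 9.67 and 10.04 for Rb KO, and 8.99, 10.03 and 8.42 in WT. It fell by 3.16 ± 0.47 in DKO against WT (adjusted p = 0.000273) and it fell by 2.50 ± 0.47 in E2f8 KO against Rb KO (adjusted p = 0.00312), where Ephx3 was higher. Its lowest Rb KO array is replicate 1, the one with the low B cell mean, and the part of other cell types in the Ephx1 values was not tested. In its list, 0 of 8 rose and 2 fell, and 2 rose without replicate 1 of DKO. Ccng1, the paralog of Ccng2 and a known p53 target, was at 12.39, 12.27 and 12.63 in DKO, 11.62, 11.98 and 12.23 for E2f8 KO, 10.45, 10.99 and 10.76 for Rb KO, and 10.80, 10.41 and 10.20 in WT. It rose by 1.96 ± 0.20 in DKO against WT (adjusted p = 2.78e-05), the reverse of Ccng2, and by 1.21 ± 0.20 in E2f8 KO against Rb KO (adjusted p = 0.00186).

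Of the cyclin G family and known FoxO targets, 4 of 30 rose and 13 fell, with a median of -0.42, and 5 fell with a 2-fold minimum. Cat, which encodes catalase, was at 12.12, 12.05 and 11.65 in DKO, 13.10, 13.05 and 12.93 for E2f8 KO, 13.91, 13.73 and 13.83 for Rb KO, and 13.93, 14.09 and 14.04 in WT. It fell by 2.08 ± 0.11 (adjusted p = 9.30e-07), and its interaction of -0.89 ± 0.16 missed the threshold (adjusted p = 0.101). Irs2, of an insulin receptor substrate, rose by 1.64 ± 0.14 and Bcl2l11, of the death-promoting protein Bim, by 1.47 ± 0.15. Irs2 was also high in E2f8 KO, at 10.98, 10.68 and 10.81, against 9.54, 9.44 and 9.27 in WT. So was Bcl2l11, at 9.88, 9.80 and 9.86 in E2f8 KO, against 9.02, 8.67 and 8.71 in WT. The FoxO gene Foxo3 itself was at 11.86 in DKO and 12.03 in WT (-0.16 ± 0.13, adjusted p = 0.38). Of 25 known targets of repression by E2f7 and E2f8, 24 rose in DKO against WT and 0 fell, with a median of 1.37. E2f7 rose by 2.24 ± 0.25, E2f1 by 1.95 ± 0.23, Cdt1, which loads the replicative helicase, by 1.72 ± 0.20 and Slbp, which binds histone messages, by 1.65 ± 0.22. The interaction was called in 0 of these 25, with a median of 0.29, against 0.0009 over all genes, and the list as a whole was not tested for it. The leukocyte lists given above moved in the same comparison, and their part was not tested.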

How the data were processed

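Values were log2 signals of biotin-labelled RNA on single-channel Affymetrix arrays, as deposited by the authors. The log2 scale was inferred from their range (1.07 to 14.84). MAS5 is the tool named, per the submitters' processing notes, without its version. It is usual for other array types than these gene-level probe sets, so which software made the values is uncertain. Normalization was not given in the sources used here. Of 35557 probe sets, 21789 carried 1 symbol, 1621 several and 12147 none. Of those with 1 symbol, 21698 were matched by gene number to a current symbol, which was often the same. The lowest 40% by mean over 12 arrays were removed (below 5.84), and the probe set with the highest mean stood for each of 12980 genes. Fits used limma 3.58.1 (R 4.3.3) and gave each label its coefficient, with all 12 arrays (8 residual degrees of freedom), a variance trend, and two-sided tests with Benjamini-Hochberg adjustment. Genes named are the 7 members, the 3 genes of the highest Pearson's r with each, close paralogs, and up to 4 per related list with the smallest p. Members and lists were chosen with earlier results of these data known. Precision is limited by the number of arrays. The fit was tested on simulated data. Alternatives were other filters, scalings, probe set rules, variance models, thresholds and adjustments, a replicate block and left-out arrays.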

Additional observations from a re-analysis of the deposited data

Results flagged for a closer look

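In Klhl7, Mid1 and Syt14 the arrays labelled with the E2f8 knockout differed in opposite directions depending on the Rb label, with no overlap between the groups compared. Over all 12980 genes the share with this pattern was 0.193%, and since the 7 genes were picked on the interaction, which favours it, nothing is read from their number and the difference was not tested. Klhl7 was higher in DKO than in Rb KO (3.15) and lower in E2f8 KO than in WT (-0.63), with an interaction of 3.78. Mid1 was higher in DKO than in Rb KO (2.53) and lower in E2f8 KO than in WT (-0.73), with an interaction of 3.26. Syt14 was lower in DKO than in Rb KO (-0.91) and higher in E2f8 KO than in WT (0.65), with an interaction of -1.56. The pattern rests on the single-knockout labels, which the Rb1 and E2f8 signals did not follow. With those 2 labels exchanged the interactions are the same, but the opposite directions without overlap are not there in these 3 genes. The pairs would then be 3.74 (DKO minus E2f8 KO) and -0.04 (Rb KO minus WT) for Klhl7, 2.89 and -0.37 for Mid1, with Rb KO and WT overlapping in both, and -2.02 and -0.47 for Syt14. The share over all genes would be 0.308%.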

How the results depend on the processing

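Each of the 145 interaction values of the 7 genes and each of their 456 differences of DKO from another group moved by less than 1 SD between replicates under the alternatives run. Removing the lowest 60% of probe sets left out Klhl7 and Ephx3, which then have no value. Of 152 values of E2f8 KO against Rb KO, 144 kept their direction and side of the threshold. The exceptions were Snx16, which turned to 0.0448 with array weights, 0.0228 without replicate 1 of E2f8 KO and 0.0447 without replicate 1 of Rb KO (-0.0865 to 0.0447 with 1 array left out), Klhl7 (passing at -0.70 with array weights, -0.59 with only the groups compared or without replicate 1 of DKO, and -0.69 without replicate 1 of Rb KO) and Mid1 (passing at -0.57 with array weights). Fhl1 and Syt14 passed at a limma adjusted p under 0.05 in each of the 22 alternatives run for them. Ephx3, whose values are among the 152, passed the filter through its high arrays, so nothing is read from its passing with a filter. With no filter its limma adjusted p was 9.23e-06. The threshold of 0.01, the 2-fold minimum and the Benjamini-Yekutieli adjustment were not run for the 7 genes. The difference of Fhl1 was 1.93-fold, below that minimum. Counts of genes moved more. For the interaction, 10 genes passed, against 6 with the lowest 60% removed, 59 with array weights, 4 at an adjusted p under 0.01 and 2 with Benjamini-Yekutieli adjustment, and 2 to 49 when 1 array was left out (49 when replicate 1 of Rb KO was omitted, 2 when replicate 1 of WT was). For DKO against WT, 4952 passed, against 3255 at 0.01, 2347 with a 2-fold minimum and 2579 with Benjamini-Yekutieli adjustment, and 3636 to 5620 with 1 array left out. For E2f8 KO against Rb KO, 3601 passed, against 5886 with array weights, 1652 at 0.01, 1527 with a 2-fold minimum, 882 with Benjamini-Yekutieli adjustment and 2337 without both arrays of low Xist signal, and 1899 to 5023 with 1 array left out. The cause was not tested. Pairing of the arrays by replicate number was not shown. Of 18 same-number pairs, 7 had deviations correlated above 0.1 (range -0.38 to 0.57), and 1 of 12 arrays deviated most like its own number. With 3 arrays per group these values do not exclude pairing. With the replicate number as a block 13, 4938 and 3658 genes passed, in the order above. The low signal of Ephx3 in Rb KO and WT, of Klhl7 in E2f8 KO and of Ccng2 in DKO limits how well their differences are measured.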
